A study of Mus musculus with 2 samples.

Results

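The 32 genes described here encode enzymes and regulators of cholesterol and fatty acid synthesis, read in the hearts of 2 mice. They were chosen by a list of gene symbols, and all 32 were found among 55536 annotated genes. The study sequenced total heart RNA from females aged 10 days and of strain B6CASTF1/J, whose name stands for first-generation offspring of a C57BL/6 and a CAST parent. Each replicate gave 1 library from 300 ng of RNA. The labels call the libraries biological replicates 1 and 2 while listing the same donor record for both. That they come from 2 animals is read here from the word biological. No allele, transgene or treatment is named, so there is 1 group, and the comparisons are those among genes within a heart and between the 2 hearts. Nothing in the labels names a litter, batch or date that parts the animals, so a p-value between them measures the difference of these 2 libraries only.

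Cholesterol is built from acetyl-CoA through mevalonate, squalene and lanosterol, while fatty acid synthase extends acetyl units into palmitate, which elongases lengthen and desaturases give double bonds. Both routes are switched on by SREBP transcription factors, which SCAP escorts out of the endoplasmic reticulum when sterols are low and which INSIG proteins hold back when sterols are high. The heart is known mainly for burning fatty acids and taking up lipid from blood.

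The libraries held 40403041 and 39849597 expected counts, and the 32 genes held between 35.48 and 2961 counts in replicate 1 and between 40.05 and 2884 in replicate 2. The 5 cardiomyocyte markers summed to 21040 and 23070 TPM (a length-corrected share of all transcripts) and all 5 were detected. Of 10 adipocyte markers, 7 were detected, and 5 of the 9 tested were called higher in replicate 1 by the 2-fold rule given further on, beside 0.678% of all genes tested, among them Adipoq at 5.19 and 1.12 TPM and Plin1 at 9.67 and 1.27 TPM. Summed adipocyte markers stood at 586.3 and 552.3 TPM, most of it Fabp4, and none of the 10 was at 0 in both hearts. Hepatocyte markers were near 0, with 1 of 7 detected, a sum of 3.56 and 5.98 TPM, and Cyp7a1 at 0 in both. Erythroid markers were called higher in replicate 2 for 5 of 5, beside 0.63% of all genes tested, at a sum of 5044 and 12390 TPM. In bulk tissue, fewer cells of a type and less RNA per cell cannot be told apart.

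All but 1 of the 32 genes were detected, which here means at least 1 TPM in both libraries, beside 53.3% of all protein-coding genes. Levels were moderate. The median over the genes was 8.73 TPM in replicate 1 and 7.475 TPM in replicate 2 (8.102 ± 0.8874, SD, n = 2), beside 10.93 and 10.87 TPM for all detected protein-coding genes. Of the 32 genes, 15 lay above that background median and 17 had a mean below 10 TPM. Their TPM summed to 318.2 and 304.9, which is 0.0318% and 0.0305% of the total. The median coefficient of variation between the hearts was 5.254%. Means ranged from 27.33 TPM for Hmgcs1 to 1.05 TPM for Elovl6.

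**Figure D1:**
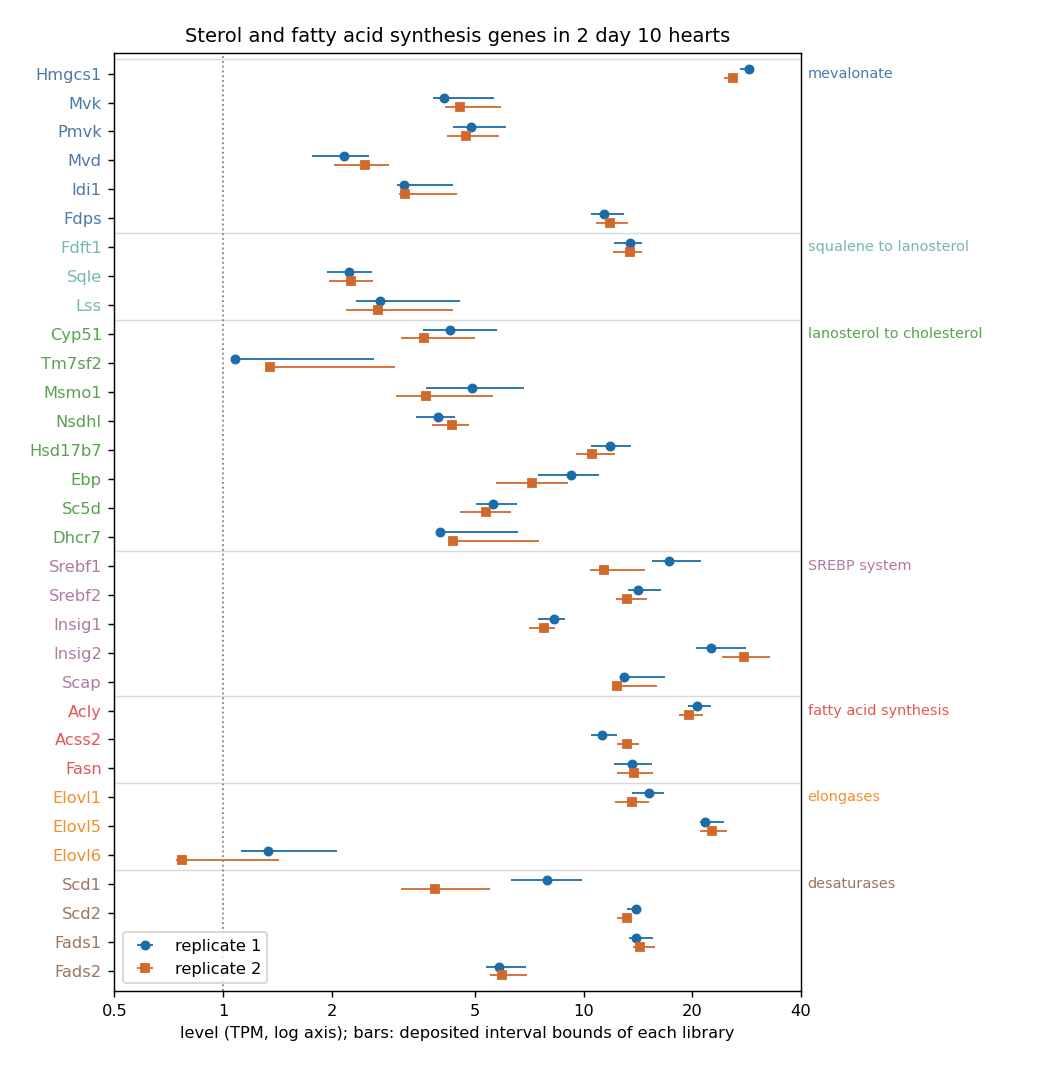
Level of each of the 32 genes in TPM (log axis) in replicate 1 (circles) and replicate 2 (squares), grouped by role, with the interval bounds deposited for each library as bars and a dotted line at 1 TPM. Hmgcs1, Insig2, Elovl5 and Acly lie furthest right, Tm7sf2 and Elovl6 furthest left, and the bars of the 2 libraries do not overlap for Hmgcs1, Srebf1, Acss2 and Scd1. Overlap of bars was not counted over all genes.

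The 17 cholesterol synthesis enzymes were mostly low, with a median of 4.26 and 4.33 TPM (4.295 ± 0.0495, SD, n = 2), while the 10 fatty acid enzymes had a median of 13.78 and 13.39 TPM (13.59 ± 0.2722). The 5 genes of the SREBP system had a median of 14.17 and 12.34 TPM. The median of the cholesterol enzymes lay below the other two in both hearts, by more than the spread between hearts, while those of the fatty acid enzymes and the SREBP system lay within that spread of each other. No test was made of these medians. The sum over the cholesterol enzymes was 117.7 and 111.5 TPM, and that over the fatty acid enzymes was 125.4 and 120.9 TPM.

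In the mevalonate branch, Hmgcs1, the cytosolic HMG-CoA synthase, whose product is the precursor of mevalonate, stood well above the rest at 28.67 and 25.99 TPM. Fdps, which makes farnesyl diphosphate, followed at 11.42 and 11.80 TPM. The steps between them were lower. Pmvk, the second of the mevalonate kinases, gave 4.88 and 4.72 TPM. Mvk, the first, gave 4.10 and 4.55 TPM. Idi1, the isopentenyl diphosphate isomerase, gave 3.17 and 3.19 TPM, and Mvd, the mevalonate diphosphate decarboxylase, gave 2.16 and 2.48 TPM. Hmgcs1 was thus the highest of the 6 in both hearts and Mvd the lowest. The log2 ratio of Mvk to Pmvk was -0.25 in replicate 1 and -0.05 in replicate 2, a difference that was not beyond 3 SD.

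The promoters of these highest and lowest genes are shown because they share a motif that recurs across the pathway. Each sequence is the 250 bases before the annotated RefSeq start (build GRCm38.p6, the assembly also called mm10), on the strand of the gene. Capitals mark the CCAAT box, written CCAAT or, on the other strand, ATTGG, and the sterol regulatory element TCACNCCAC. Hmgcs1 lies at chr13:119690101-119690350 on the plus strand and Mvd at chr8:122443423-122443672 on the minus strand.
Hmgcs1: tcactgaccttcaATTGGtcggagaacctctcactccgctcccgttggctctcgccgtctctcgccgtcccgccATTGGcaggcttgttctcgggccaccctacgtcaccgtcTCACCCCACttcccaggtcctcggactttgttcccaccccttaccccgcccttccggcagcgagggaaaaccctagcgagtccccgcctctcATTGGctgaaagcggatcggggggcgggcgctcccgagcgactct
Mvd: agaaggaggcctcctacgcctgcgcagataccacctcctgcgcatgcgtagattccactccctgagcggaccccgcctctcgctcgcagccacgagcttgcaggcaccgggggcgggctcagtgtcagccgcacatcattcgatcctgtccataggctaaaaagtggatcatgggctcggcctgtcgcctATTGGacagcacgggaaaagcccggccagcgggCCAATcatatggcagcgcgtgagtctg
The Hmgcs1 window held 3 CCAAT boxes, which begin 237, 176 and 45 bases before the start, and a sterol regulatory element TCACCCCAC that begins 137 bases before it. The Mvd window held 2 CCAAT boxes, beginning 60 and 27 bases before the start, and no match to the sterol regulatory element letters. A match is a run of letters, not a measured site.

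From farnesyl diphosphate to lanosterol there are 3 enzymes. Fdft1, squalene synthase, gave 13.43 and 13.45 TPM, while Sqle, the squalene epoxidase, gave 2.23 and 2.27 TPM. Lss, lanosterol synthase, gave 2.72 and 2.69 TPM. All 3 of these gene levels were nearly identical in the 2 hearts, with SDs of 0.01414, 0.02828 and 0.02121 TPM. For Lss this did not extend to a second transcript table, made by a different method, which gave 4.488 and 3.492 TPM. Nor did it extend to its coding transcript Lss-201, at 0.51 and 1.11 TPM on 72.96 and 155.76 counts. The Fdft1 value has a limit: its exons overlap those of Ctsb on the other strand, at 149.69 and 171.49 TPM, and whether the counting used strand is not given in the sources used here.

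Between lanosterol and cholesterol, 8 genes were measured and all 8 were detected. Hsd17b7, a ketosteroid reductase, was the highest at 11.85 and 10.55 TPM, followed by Ebp, the sterol isomerase, at 9.21 and 7.17 TPM. Sc5d, the sterol C5 desaturase, gave 5.62 and 5.36 TPM. Msmo1, the methylsterol monooxygenase, gave 4.91 and 3.66 TPM. Cyp51, the lanosterol demethylase, gave 4.26 and 3.61 TPM. These 5 were each lower in TPM in replicate 2, though Sc5d was higher there in counts scaled for library size (log2 ratio 0.0583). None of the 5 differences between the hearts passed the test described below. Dhcr7, the last enzyme of the route through dehydrocholesterol, gave 4.00 and 4.33 TPM. Nsdhl, which removes a sterol carbon, gave 3.94 and 4.31 TPM, and Tm7sf2, a sterol reductase, gave 1.08 and 1.35 TPM. Tm7sf2 rested on 35.48 and 40.05 counts and shares exons on the same strand with Vps51, at 14.69 and 12.33 TPM. Cyp51 shares exons with Akap9 on the other strand.

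In the SREBP system, Insig2 was the most abundant gene at 22.55 and 27.80 TPM, and its relative Insig1, itself an SREBP target in many cells, stood at 8.25 and 7.78 TPM. The log2 ratio of Insig1 to Insig2 was -1.44 and -1.82 in the 2 hearts (-1.63 ± 0.27, SD, n = 2), which is 3.099-fold in favour of Insig2. The mean was -1.84 by kallisto-type TPM and -0.99 by counts not scaled by length. The Insig2 TPM includes short transcripts on few counts, such as Insig2-206 of 334 bases (3.57 and 6.99 TPM on 26.3 and 50.46 counts). The coding transcript Insig2-201 gave 13.55 and 14.40 TPM, against 7.72 and 7.54 TPM for Insig1-201. Srebf2, the factor known mainly for cholesterol genes, gave 14.17 and 13.22 TPM. Srebf1, the factor known mainly for fatty acid genes, gave 17.20 and 11.37 TPM. Their ratio in gene TPM turned with the heart: Srebf1 was 1.212-fold above Srebf2 in replicate 1 and 1.161-fold below it in replicate 2. It also turned by kallisto-type TPM, at log2 ratios of 0.30 and -0.17. By counts not scaled by length Srebf1 was the lower, at a mean log2 ratio of -0.69. Coding transcripts held 48.25% and 61.49% of the Srebf1 TPM but 84.59% and 81.39% of the Srebf2 TPM, so the turn is not shown for coding RNA. Scap gave 12.96 and 12.34 TPM.

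Srebf1 has alternative first exons that give SREBP-1a, the stronger activator, and SREBP-1c, the form known from liver and fat. The files name no form, and the forms were assigned here from the first coding exon of the annotated transcripts. By that assignment the GENCODE transcript with the 1a start is Srebf1-201, which begins at base 60220604 of chromosome 11, and the coding transcript with the 1c start is Srebf1-207, which begins 10139 bases downstream at base 60210465. The 1a transcript gave 5.61 and 6.01 TPM. The 1c transcript gave 2.26 and 0.85 TPM, on 218.06 and 79.91 counts. In both hearts the 1a transcript was thus given the higher TPM, by 2.482-fold in replicate 1 and 7.071-fold in replicate 2. In the second transcript table, made by a different method, the 1a form was 2.389-fold and 2.836-fold above 1c. The 1c transcript was 2.659-fold higher in replicate 1 by the first method and 1.357-fold by the second, whereas the same ratio for the 1a transcript was 0.9334 and 1.143. Single transcripts were not tested. The excess of 1a over 1c was found in both hearts by both methods, and the size of the 1c difference between hearts depended on the method. Both methods report the same annotated transcripts, so they are not independent here. Srebf1-207, of 3177 bases, ends at base 60200463, while Srebf1-201, of 4299 bases, ends further downstream at base 60199089. Reads from beyond the end of Srebf1-207 cannot be credited to it, and what this adds to the 1a excess was not tested.

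The windows before both Srebf1 starts are shown because these starts separate the forms. The 1a window is chr11:60220628-60220877 and the 1c window is chr11:60210472-60210721, both on the minus strand and from the same RefSeq set.
Srebf1 1a: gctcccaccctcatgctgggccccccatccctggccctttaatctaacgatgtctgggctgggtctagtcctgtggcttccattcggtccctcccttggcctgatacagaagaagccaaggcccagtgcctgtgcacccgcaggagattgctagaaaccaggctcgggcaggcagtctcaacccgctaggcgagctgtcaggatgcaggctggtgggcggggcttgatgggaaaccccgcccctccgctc
Srebf1 1c: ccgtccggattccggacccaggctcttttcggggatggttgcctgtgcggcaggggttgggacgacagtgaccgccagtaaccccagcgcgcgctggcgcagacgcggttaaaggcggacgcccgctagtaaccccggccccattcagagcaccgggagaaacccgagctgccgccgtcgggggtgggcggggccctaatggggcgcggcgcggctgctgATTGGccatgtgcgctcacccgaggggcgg
The 1c window held a CCAAT box that begins 30 bases before its start, and the 1a window held none. Neither held the sterol regulatory element letters. Both held 2 GC boxes.

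The difference of Srebf1 between hearts was smaller in counts than in TPM. Its counts were 1112 and 921, which is 1.174-fold lower in replicate 2 after scaling, while its gene TPM carried a short noncoding transcript, Srebf1-204 of 367 bases. That transcript was given 5.70 and 3.04 TPM on 47.87 and 25.05 counts by the first method and 0 by the second. Srebf1 also shares exons on the other strand with Rai1, at 18.44 and 15.03 TPM.

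**Figure D2:**
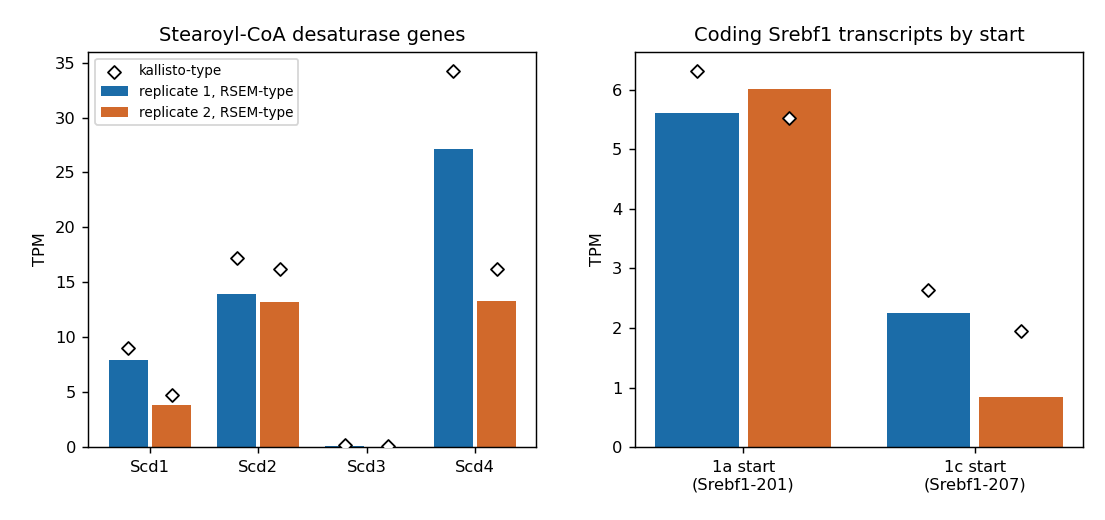
Left, TPM of the 4 stearoyl-CoA desaturase genes; right, TPM of the coding Srebf1 transcripts with the 1a and the 1c start. Bars from 0 are the first method (headers as RSEM writes them) in replicates 1 and 2, and diamonds are the second method (headers as kallisto writes them). Scd1 and Scd4 stand lower in replicate 2, Scd2 about level, and the 1a transcript exceeds the 1c transcript in both hearts.

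For the synthesis of palmitate, Acly, which makes cytosolic acetyl-CoA from citrate, gave 20.59 and 19.56 TPM. Acss2, which makes it from acetate, gave 11.22 and 13.16 TPM, 1.646-fold below Acly on average, with log2 ratios of -0.87 and -0.57. Acss2 shares exons with Gss on the other strand, at 7.12 and 6.83 TPM. Fasn, fatty acid synthase, gave 13.62 and 13.75 TPM. Fasn had the most counts of the 32 genes, 2961 and 2884, and differed by 1.001-fold between the hearts after scaling. Its promoter window, chr11:120824548-120824797 on the minus strand, is shown as an example with closely spaced CCAAT boxes.
Fasn: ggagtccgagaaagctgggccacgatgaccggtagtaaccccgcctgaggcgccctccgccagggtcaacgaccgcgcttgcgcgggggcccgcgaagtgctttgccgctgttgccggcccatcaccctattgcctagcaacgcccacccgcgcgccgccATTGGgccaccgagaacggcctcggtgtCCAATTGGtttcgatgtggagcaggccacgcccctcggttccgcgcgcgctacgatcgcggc
It held 3 CCAAT boxes, which begin 90, 62 and 59 bases before the start. The last 2 overlap on opposite strands and appear as a single run of capitals.

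Other carboxylase and acetate genes set these levels in context. Acacb, the acetyl-CoA carboxylase at the mitochondrial surface whose malonyl-CoA restrains fatty acid oxidation, gave 62.97 and 69.11 TPM. Its cytosolic relative Acaca, which supplies Fasn, was 9.886-fold lower in replicate 1 and 12.18-fold lower in replicate 2. The mitochondrial acetate enzyme Acss1 gave 26.93 and 36.67 TPM and was 2.573-fold above the cytosolic Acss2. The mitochondrial relative was thus the higher one in both pairs.

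The elongases spanned the widest range of any role group, as a ratio of the highest mean to the lowest. Elovl5, which lengthens polyunsaturated fatty acids, gave 21.72 and 22.76 TPM, and Elovl1, which makes very long saturated chains, gave 15.20 and 13.60 TPM. Elovl6, which lengthens palmitate to stearate, gave 1.33 and 0.77 TPM on 179 and 125 counts, the lowest mean of the 32 genes. Elovl5 exceeded Elovl6 by 20.02-fold and Elovl1 exceeded it by 12.98-fold. Elovl5 exceeded Elovl1 by 1.543-fold by the first method, a difference that was not beyond 3 SD with the TPM of the second method, at a mean log2 ratio of 0.25. Elovl1 shares exons on the other strand with Cdc20, at 10.22 and 13.17 TPM.

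The desaturases that act on polyunsaturated fatty acids differed little between the hearts. Fads1, the delta-5 desaturase, gave 14.01 and 14.33 TPM, and Fads2, the delta-6 desaturase, gave 5.82 and 5.93 TPM. The log2 ratio of Fads1 to Fads2 was 1.25 and 1.26 (1.26 ± 0.0041, SD, n = 2), a 2.388-fold excess. The genes are neighbours on chromosome 19.

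The stearoyl-CoA desaturases, which make monounsaturated fatty acids, were the exception. Scd1 (chr19:44394455-44407879) gave 7.93 TPM in replicate 1 and 3.88 TPM in replicate 2, on 798.62 and 432.62 counts. Scaled for library size it was 1.794-fold higher in replicate 1 (log2 ratio of replicate 2 to replicate 1 -0.84, counting SE 0.0861; exact binomial test with Benjamini-Hochberg adjustment, adjusted p = 8.58e-22). Scd4 (chr19:44333092-44346743), which is not among the 32 genes, gave 27.12 and 13.30 TPM and was 2.027-fold higher in replicate 1 (adjusted p = 3.62e-99, same exact test). Scd2 (chr19:44293674-44306864) lies on the far side of Scd4 from Scd1 and gave 13.94 and 13.19 TPM (adjusted p = 0.322, same exact test). Scd3 was at 0.10 and 0.04 TPM. The Scd1 and Scd4 differences were larger than counting error, and that of Scd2 did not pass the test.

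The makeup of the family shifted with the heart. The 4 genes summed to 49.09 and 30.41 TPM, and to 60.68 and 37.38 TPM by the second method. Scd4 held 55.25% of the sum in replicate 1 and 43.74% in replicate 2, while Scd2 held 28.40% and 43.37%. The ratio of Scd1 to Scd4 hardly moved by the first method, at log2 -1.76 and -1.75 (-1.76 ± 0.0069, SD, n = 2). By the second method it was -1.91 and -1.74. Against Scd2, by contrast, the log2 ratio was -0.81 and -1.74 for Scd1 and 0.96 and 0.01 for Scd4. Beside these differences, the adipocyte markers Adipoq, Plin1, Cidec, Cfd and Ucp1 were also called higher in replicate 1 (Ucp1 at 44.47 and 6.85 TPM). Cidea was 1.477-fold higher in replicate 1 (adjusted p = 1.24e-16, same exact test). Of the other markers tested, Fabp4 gave 444.55 and 476.40 TPM, Plin4 32.61 and 34.62 TPM, and Pparg 5.62 and 5.04 TPM with a log2 ratio of counts near 0. Their part in the result was not tested. Scd1, Scd2, Scd3 and Scd4 have fractional counts, since reads that fit several genes are divided among them. The split between these family members is therefore less certain than their sum. Fractional counts were also found for Idi1, Fdps, Fdft1 and Tm7sf2.

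**Figure D3:**
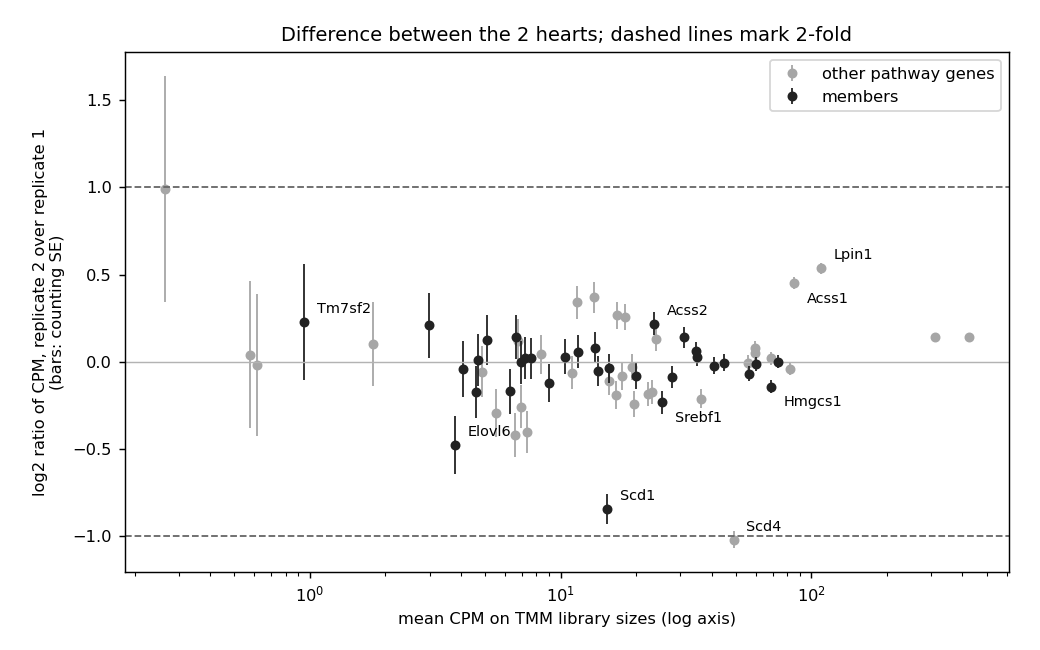
Log2 ratio of CPM (counts relative to scaled library size) between replicate 2 and replicate 1 against mean CPM (log axis), for the 32 genes (black) and other genes of the pathway (grey), with counting standard errors as bars and dashed lines at 2-fold. Scd1 is the only black point beyond 1.5-fold, and Scd4 lies at the lower dashed line.

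Across the 32 genes the hearts differed little. An exact conditional binomial test (two-sided, Benjamini-Hochberg adjustment over 16517 genes) was used, and a gene was called when its adjusted p was below 0.05 and its ratio 2-fold or more. It called 0 of the 32 genes, beside 1.31% of all genes tested. At an unadjusted p under 0.05, 6 of 32 genes passed, beside 27.5% of all. At an adjusted p under 0.05 with no bound on the ratio, 5 of 32 passed, beside 17.6% of all: Hmgcs1, Srebf1, Elovl6 and Scd1 were higher in replicate 1 and Acss2 was higher in replicate 2. With 1.5-fold as the bound, 1 of 32 was called, Scd1, beside 2.83% of all in either direction and 1.3% higher in replicate 1. These shares of the 32 genes were near or below those of all genes.

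The small differences that passed had the following sizes. Hmgcs1 was 1.103-fold higher in replicate 1 (adjusted p = 0.00294, exact binomial test). Acss2 was 1.164-fold higher in replicate 2 (adjusted p = 0.00876, same exact test). Srebf1 was 1.174-fold higher in replicate 1 (adjusted p = 0.00319, same exact test), and Elovl6 1.391-fold (adjusted p = 0.0313, same exact test). Insig2 was 1.102-fold higher in replicate 2 and did not pass (adjusted p = 0.0786, same exact test), though it passed with the counts of the second method (adjusted p = 0.024, same exact test). The test knows only counting error. Over all genes tested the coefficient of variation between these hearts beyond counting was 9.14%, and the differences of Hmgcs1, Insig2, Acss2 and Srebf1 are of that order.

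In direction the genes were balanced. In replicate 2, 15 were higher and 17 were lower, beside 49.4% of all genes tested that were lower. The median log2 ratio was -0.0035, beside 0.0023 for all genes. Of the 32 genes, 30 lay within 1.25-fold, beside 80.6% of all genes and 91.9% of the 11994 genes whose counts in both libraries sum to 200 or more. The 2 outside were Elovl6 and Scd1. Within 1.1-fold lay 21 of 32, beside 54.5% of all. All 17 cholesterol enzymes lay within 1.25-fold, with a median absolute log2 ratio of 0.0862, beside 0.1212 for all genes and 0.0933 for those 11994.

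The other genes of the pathway came from a list of 38, of which 37 were matched and 32 detected. Of the 35 tested, 1 was called between hearts, Scd4, beside the 1.31% of all genes. At an adjusted p under 0.05 with no bound on the ratio, 14 of 35 passed, beside the 17.6% of all genes. The 5 most abundant were not genes of sterol synthesis. Hacd1, a dehydratase of fatty acid elongation best known in muscle, gave 86.17 and 88.71 TPM. Tecr, the reductase of the same elongation cycle, gave 80.43 and 77.26 TPM. Gpam, the mitochondrial acyltransferase that starts glycerolipid synthesis, gave 66.14 and 70.53 TPM. Acacb and Acss1, given above, complete the 5.

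Of 13 pairs of related genes, 9 stood apart in the same direction in both hearts by more than 3 SD. With 2 hearts no exact test can go below p = 0.5, so these are descriptions. The pairs apart were those of Insig1 with Insig2, Scd1 with Scd4, Elovl6 with Elovl5 and with Elovl1, Elovl5 with Elovl1, Fads1 with Fads2, Acss2 with Acly, Acss1 with Acss2, and Acacb with Acaca. Those of Srebf1 with Srebf2, Scd1 with Scd2, Scd4 with Scd2 and Mvk with Pmvk did not. Of these 4, all but the pair of Mvk and Pmvk contain a gene with an adjusted p under 0.05 between hearts (exact binomial test). So do the pairs apart that hold Scd1, Scd4, Elovl6, Acss2, Acss1 or Acacb, and such a gene therefore does not mark out these 4.

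**Figure D4:**
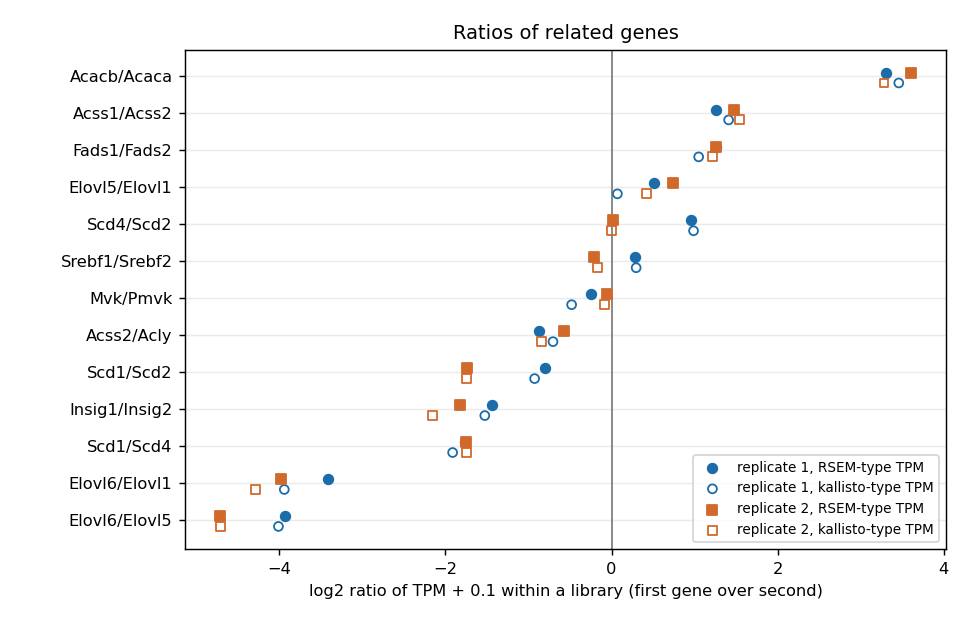
Log2 ratio of TPM + 0.1 of the first gene over the second within each library, for 13 pairs, in replicate 1 (circles) and replicate 2 (squares), by the first method (filled) and the second (open). Acacb stands far above Acaca and Elovl6 far below Elovl5 and Elovl1 in every library and method, while Srebf1 over Srebf2 crosses 0 between the hearts.

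Each of the 32 genes has several annotated transcripts. The leading transcript, the one with the largest share of the gene's TPM, was the same in both hearts for 24 genes by the first method and for 28 by the second, and the same in all 4 readings for 20. For some genes the methods differ on it. Mvd-201, a coding transcript, held the whole Mvd TPM in both hearts by the first method, while Mvd-202, annotated as a target of nonsense-mediated decay, held 71.08% and 75.95% by the second. Hmgcs1-202 held 78.59% and 73.07% by the first method, and Hmgcs1-201 held 80.37% and 80.17% by the second. Both Hmgcs1 transcripts are coding.

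By the first method, coding transcripts held under 90% of the TPM in both hearts for 12 of the 32 genes, among them Srebf1 at 48.25% and 61.49%. Retained-intron transcripts held over 20% in both hearts for 6 genes: Fdft1, Lss, Cyp51, Ebp, Insig2 and Fasn. For Lss, coding transcripts held 18.76% and 41.27% of the TPM by the first method, and retained-intron transcripts held 54.63% and 21.66%. For Fdft1, retained-intron transcripts held 37.88% and 43.91%. For Ebp they held 32.73% and 25.44%, and for Cyp51 30.37% and 23.82%. For Insig2 they held 20.39% and 26.38%, and for Fasn 22.56% and 23.69%. By the first method a gene-level TPM for these 12 genes is therefore not all coding RNA. For Cyp51 this depended on the method. The second gave its coding transcripts 99.75% and 90.38%, and its retained-intron transcripts 0.25% and 9.62%. The others of the 12 were under 90% coding in both hearts by the second method as well. By the second method TPM was higher than by the first in both hearts for 31 of 32 genes, with a median log2 ratio of 0.27 and 0.30. Dhcr7 gave 6.912 and 11.27 TPM by the second method against 4.00 and 4.33 by the first.

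Promoter windows were available for 26 of the 32 genes, some with several starts, for 35 windows in all. Scd1, Scd2, Fads1, Fdft1, Sqle and Fdps were not matched. The CCAAT box was found in 22 of 26 genes (84.6%), beside 37.5% of 27025 genes with windows of this length and 40.9% of the 9186 that were protein-coding and detected. By role, it was found in 14 of 14 matched cholesterol enzymes, 4 of 7 fatty acid enzymes and 4 of 5 genes of the SREBP system. The 43 matches had a median of 62 bases before the start, and 30 lay within 100 bases. More than a single match over their windows was found in 13 genes. Positions and numbers of matches were not counted over all genes, so neither can be called particular to this pathway. A window counts whether or not its start was in use. When only windows within 100 bases of the start of a transcript with TPM in both hearts were kept, the box was found in 19 of 24 genes (79.2%), and in 12 of 13 cholesterol enzymes. Pmvk and Insig2 then had none, since the windows that hold their boxes lie at starts with 0 TPM by both methods. The shares of all genes were not restricted in this way. The motif was searched on both strands, and no test was made of these shares, since the genes were chosen for a shared function.

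The GC box GGGCGG was found in 22 of 26 genes (84.6%), beside 35.4% of all genes and 65.7% of detected protein-coding genes. The E-box CACGTG was found in 6 of 26 (23.1%), beside 6.86% and 10.0%: Dhcr7, Elovl5, Hsd17b7, Insig1, Sc5d and Scap. The Dhcr7 E-box lies in a window whose start had 0 TPM by both methods, and the shares in this paragraph were not restricted to starts in use. The sterol regulatory element letters TCACNCCAC were found in 1 of 26 (3.85%), Hmgcs1, beside 1.22% and 1.21%. The letters searched are a strict form of the element, and no match says only that they are not in these windows.

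**Figure D5:**
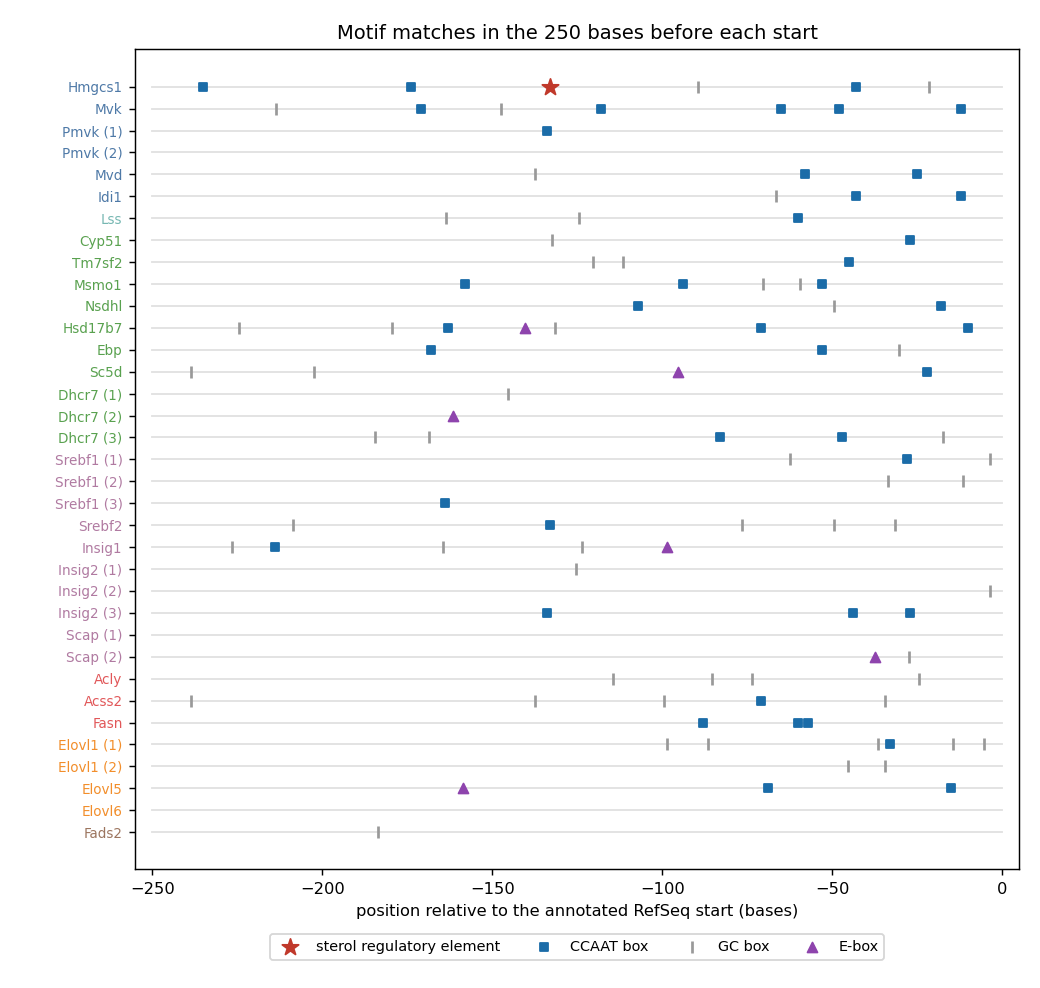
Position of motif matches in the 250 bases before each RefSeq start (horizontal axis, bases relative to the start at 0), with a line for each of 35 windows of 26 genes and numbers in brackets for genes with several starts. CCAAT boxes (squares) occur in 22 genes, with 30 of 43 matches within 100 bases of the start. GC boxes are ticks, E-boxes are triangles, and the star marks the sterol regulatory element of Hmgcs1. Positions were not counted over all genes.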

How the data were processed

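Total RNA from 2 hearts was measured, with 1 library each. The gene tables deposited by the authors hold an expected count and TPM per gene, and their transcript tables add the percent of a gene's TPM in each transcript; a second set of deposited transcript tables holds an estimated count and TPM. Headers are those that RSEM and kallisto write, called here the first and second method. Assembly mm10 and annotation GENCODE M21 come from the text deposited with the files, while the sources used here name neither the tools and versions nor the use of strand. Entries that name no gene and spike-ins were left out of library sizes. The interval bounds drawn for each library are those of the deposited tables. The TPM of 2 genes in replicate 1 and 3 in replicate 2 fell below them.

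Levels are the TPM of each library, with mean and SD. The libraries were compared by an exact binomial test on rounded expected counts with TMM sizes (edgeR 4.0.16, R 4.3.3), for genes whose 2 counts sum to 20 or more. It was tested on data simulated with counting error only, which leaves out variation between animals. Fold changes are ratios of CPM with a prior count of 0.5, and pair ratios used TPM + 0.1. Counting errors cover counting only, since amplified reads are not independent molecules. The edgeR quasi-likelihood test needs 2 groups and could not be fitted. Named genes were all 32, the members of the 13 pairs, called pathway genes and the 5 most abundant of these; some pathway genes and a pair of the planned lists are not reported here. The genes, lists and pairs were chosen with earlier results of these data known. Promoter sequences are from RefSeq (GRCm38.p6), matched by symbol. Python 3.11.15 with pandas 2.3.3 and scipy 1.17.1 was used. Alternatives were another scaling (DESeq2 1.42.0), filter, fold bound, count table, pseudocount and detection level, and each library alone.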

Additional observations from a re-analysis of the deposited data

How the results depend on the processing

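None of the 9 pairs that stood apart changed sign under the alternatives run. At a detection level of 5 TPM, 19 of the 32 genes were detected in place of 31, and each library alone gave 31 to 32. The median of 8.102 TPM became 10.77 with the second method and 15.34 with TPM rescaled over protein-coding genes, and was 7.475 to 8.73 in each library alone. With a 1.5-fold bound, 1 gene (Scd1) was called in place of 0, and 468 in place of 216 over all genes. No other alternative called any of the 32 genes: calls over all genes were 218 with DESeq2 size factors, 219 with total counts, 278 with a summed count of at least 1 and 240 with the second method. The median log2 ratio of -0.0035 became -0.0478 with library sizes that leave out mitochondrial genes, where the median of all genes was -0.042. That scaling turned the sign of 6 of the 32 genes, all with an absolute log2 ratio of at most 0.0295. Pairs of Srebf1 with Srebf2 and of Scd1 with Scd2 stood apart by counts not scaled by length, at mean log2 ratios of -0.69 and -1.94. By those counts 3 pairs that had not stood apart took the other sign: Srebf1 with Srebf2 (0.03 before), Scd4 with Scd2 (0.48 to -0.29) and Mvk with Pmvk (-0.15 to 0.31). The search of windows at starts with TPM, chosen after seeing the data, gave a CCAAT box in 19 genes in place of 22. No paired analysis was possible because the labels give only 1 group. Depth limits Tm7sf2 and Mvd most, which had the fewest counts.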
